A study of Homo sapiens with 8 samples.

Results

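Self-seeded tumour cells were compared with circulating tumour cells in 5 of the 8 RNA libraries of this study, the 3 labelled TSC (tumour self-seeded cells) against the 2 labelled CTC (circulating tumour cells). The members are the libraries whose labels give these cell subtypes, and all 14255 of 39533 genes with enough counts were tested between them. Every library was made from HCT116 cells, an established line of human colorectal carcinoma, taken back out of a tumour self-seeding model. The TSC libraries have the primary tumour as their source and the CTC libraries have blood. The other 3 libraries, of primary tumour cells (PC, also from the primary tumour), are not part of the contrast. They entered the fit for the count filter, the scaling and the estimate of the spread. No genotype, treatment or time separates the groups in the labels, and neither the host animal nor the way the cells were sorted is given in the sources used here. The title of the series speaks of liver cancer, while its labels give a colorectal line. The labels do not state that replicates are separate cultures or animals, so p-values reflect only how far these libraries differ from each other, which may be technical.

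Self-seeding is the return of tumour cells from the circulation to a tumour that already exists. Cells that do this leave the blood, cross the vessel wall and grow again among the cells of the tumour, so circulating and self-seeded cells are separated by a change of surroundings. In blood a tumour cell lies among red cells, platelets and leukocytes, and in a tumour it is attached to matrix and to other epithelial cells.

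Library totals ran from 4578869 to 14717833 counts in TSC, and were 957607 and 10524069 counts in CTC replicates 1 and 2. With 3 counts as the limit that a count of 0 allows, a gene could lie at up to 2.99 CPM (gene counts scaled to equal library totals) unseen in CTC replicate 1, and at up to 0.286 CPM in CTC replicate 2. In TSC that limit was 0.668, 0.212 and 0.271 CPM, and all such limits cover counting error only. The table holds 16547 rows at 0 in all 8 libraries, the ribosomal protein gene RPS25 among them, so a 0 is no evidence that a gene was off.

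Epithelial markers of this line were measured in both groups. EPCAM, an epithelial adhesion molecule, was at 616, 472 and 505 CPM in TSC and at 568 and 546 CPM in CTC, and these values overlap. The keratin gene KRT8 was at 4896, 4085 and 4569.8 CPM against 2563 and 3974 CPM, and E-cadherin (CDH1) at 131, 130 and 159 CPM against 111 and 82.3 CPM. Each had its TSC libraries above both CTC libraries, and neither was called, with log2 differences of 0.47 ± 0.19 (SE) and 0.56 ± 0.24. Of 20 genes in a list for colonic epithelium, 5 were at 0 in all 8 libraries (KRT20 and CDX1 among them), 9 were below the count filter and 6 were tested, of which 0 were called. The median of the 6 was 0.48, and 4 of them had every TSC library above both CTC libraries, against 15.4% of all tested genes. Unadjusted p was under 0.05 for 4, all higher in TSC, against 16.7% of all tested genes in either direction. The list summed to 9240, 7977 and 9036 CPM in TSC and to 5151 and 7618 CPM in CTC. CDX2, the intestinal transcription factor, was at 25.3 to 29.2 CPM in TSC and at 13 and 33.9 CPM in CTC.

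In all, 128 genes were called between TSC and CTC, which is 0.898% of those tested, at a Benjamini-Hochberg adjusted p under 0.05 by edgeR's quasi-likelihood test over all tested genes. Of these 53 were higher in TSC (0.372%) and 75 lower (0.526%), and 125 differed at least 2-fold. Unadjusted p was under 0.05 for 2379 genes, or 16.7%. The median log2 difference of all tested genes was 0.06. The values of the TSC and CTC libraries did not overlap for any of the 128, against 28.4% of all tested genes (15.4% with every TSC library above CTC and 13% with every one below). The 2 directions differed in size and level. Called genes that were higher in TSC had a median log2 difference of 1.51, and 43 of 53 averaged at least 10 CPM in TSC. Those lower in TSC had a median of −5.25, and 39 of 75 averaged under 1 CPM in TSC. A gene near 0 in TSC and PC passes the filter only through CTC, so the sizes and levels of such falls are partly set by it. The limit that a count of 0 allows also differed, at 2.99 CPM in CTC replicate 1 and 0.212 to 0.668 CPM in TSC. The part of depth in this contrast was not tested. Among the 9142 tested genes with a mean of at least 10 CPM in TSC, 0.47% were called higher and 0.197% lower. Every adjusted p given here comes from the same test over all tested genes.

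**Figure D1:**
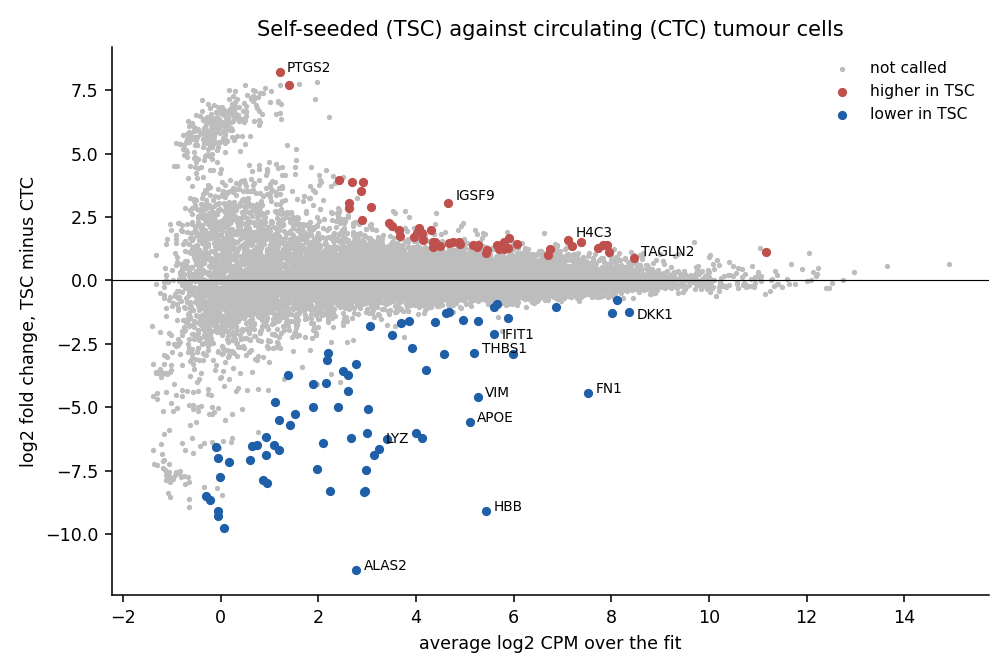
Log2 fold change (TSC minus CTC, y axis) against the average log2 CPM over the fit (x axis) for the tested genes, with called genes in red (higher in TSC) and blue (lower in TSC); 1 called lower gene is not drawn. The lower genes reach far from 0 at the left and centre, whereas the 53 higher genes have a median of 1.51; PTGS2 had 0 counts in CTC.

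Of the 75 genes lower in TSC, 14 were in the lists of blood cell markers, and their means in TSC were at most 1.74 CPM (CSF1R). HBB (chr11:5225464-5227071), which encodes β-globin of haemoglobin, was at 0.446, 0.494 and 0.090 CPM in the TSC libraries and at 164 and 209 CPM in CTC. Its log2 difference was −9.08 ± 0.54 (SE, n = 3 and 2, adjusted p = 8.99e-07), the smallest adjusted p of the comparison. ALAS2, the erythroid enzyme that starts haem synthesis, had 0 counts in all 3 TSC libraries and 26.9 and 38.2 CPM in CTC, at least 369-fold higher in CTC with 3 counts over the TSC group as the floor. Its call was lost without CTC replicate 2 (adjusted p = 0.0719). The erythroid list was otherwise incomplete: of 25 genes, 11 were at 0 in all 8 libraries, including the α-globin gene HBA2, and 2 of 11 tested members were called lower. The median of the 11 was −0.35, and 3 of them were positive. The list summed to 422, 372 and 342 CPM in TSC and to 602 and 764 CPM in CTC. HBD, the δ-globin gene, did not follow HBB, at 85.3, 93.0 and 80.3 CPM in TSC and 52.9 and 78.5 CPM in CTC (adjusted p = 0.433). HBB and HBD are close copies, so reads may be divided between them. In bulk RNA, fewer cells of a type and less RNA per cell cannot be told apart.

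Myeloid genes followed the same pattern. LYZ (chr12:69348381-69354234), the lysozyme gene of monocytes and granulocytes, was at 0.668, 0.423 and 0.633 CPM in TSC and at 94.8 and 23.4 CPM in CTC. The log2 difference was −6.64 ± 0.68 (adjusted p = 0.000143), and CTC replicate 1 was the higher of the CTC libraries. CYBB, a subunit of the phagocyte NADPH oxidase, was at 0.223, 0.847 and 0.904 CPM against 88.8 and 32.2 CPM (−6.26 ± 0.66, adjusted p = 0.000179). ITGAM, the integrin chain CD11b, was at 0, 0 and 0.543 CPM against 33.9 and 41.2 CPM (−7.46 ± 0.75, adjusted p = 0.000143). The macrophage growth factor receptor gene CSF1R was at 1.13 to 2.45 CPM in TSC and 55.9 and 16.3 CPM in CTC. SPI1, the transcription factor PU.1 of myeloid cells, was at 0 to 0.181 CPM against 33.9 and 17.5 CPM. Of 39 genes in the myeloid list, 10 were at 0 in all 8 libraries, among them S100A8, S100A9, MPO and CSF3R, 13 were below the filter and 16 were tested, of which 7 were called lower and 0 higher. A gene near 0 in TSC and PC passes the filter only through CTC, so the direction of the tested members is partly set by it. Summed over the list, myeloid genes held 30.7 to 60.8 CPM in TSC and 438 and 201 CPM in CTC.

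Some genes shared by leukocytes were lower in TSC as well. PTPRC, which encodes CD45 of all leukocytes, was at 0, 0 and 0.452 CPM in TSC libraries and at 31.9 and 7.63 CPM in CTC (−6.70 ± 1.36, adjusted p = 0.0345). That call was lost without TSC replicate 2, TSC replicate 3, CTC replicate 1 or CTC replicate 2 (adjusted p = 0.077, 0.0762, 0.112 and 0.101). LCP1, leukocyte plastin, was at 0 to 1.54 CPM in TSC and at 83.8 and 21.1 CPM in CTC (adjusted p = 0.000917). DOCK2, of the same list, was at 0.212 to 0.633 CPM in TSC and at 72.8 and 31.9 CPM in CTC (−6.90 ± 0.74, adjusted p = 0.000199). Of 33 lymphoid and pan-leukocyte genes, 11 were tested, of which 4 were called lower and 0 higher, against 0.526% and 0.372% of all tested genes. Differences were positive for 4 of the 11, up to 3.53, and 1 of these 4 had an unadjusted p under 0.05. The limit set by the filter, given above for myeloid genes, holds for this list too. The T cell genes CD3E, CD2 and TRAC were at 0 in all 8 libraries. The list summed to 40.3 to 69.2 CPM in TSC and to 286 and 110 CPM in CTC. Platelet genes gave 1 call of 5 tested, the clotting factor gene F13A1, with 1 count in TSC and 54 in CTC (ratio 140, 95% counting interval 24.0 to 5618). It passed in 2 of the 8 fits that each left out 1 library. Of the 5 tested platelet genes 2 had positive differences, up to 7.82, and 1 of these 2 had an unadjusted p under 0.05. The platelet-defining genes PF4, PPBP and GP9 were at 0 in all 8 libraries, and the list sums of 27.6 to 48.5 CPM in TSC and 36.9 and 51.1 CPM in CTC overlapped.

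**Figure D2:**
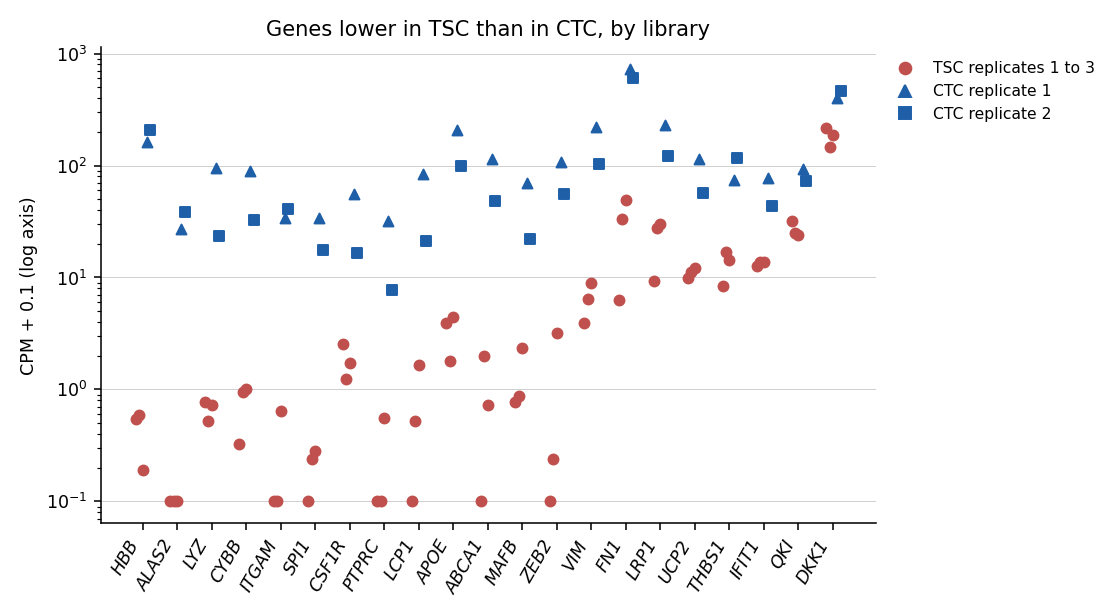
CPM plus 0.1 on a log axis for 21 genes called lower in TSC, with 3 TSC libraries (red circles), CTC replicate 1 (blue triangles) and CTC replicate 2 (blue squares). The gap between the groups narrows from HBB at the left to QKI and DKK1 at the right, where TSC libraries hold over 10 CPM, and CTC replicate 1 lies above replicate 2 for most leukocyte genes.

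Other genes that fell in TSC lay outside the lists of blood cell markers. APOE, an apolipoprotein secreted by macrophages and liver, was at 3.79, 1.69 and 4.34 CPM in TSC and at 208 and 98.8 CPM in CTC (−5.57 ± 0.49, adjusted p = 4.78e-05). The cholesterol exporter gene ABCA1 was at 0 to 1.91 CPM in TSC and at 115 and 47.9 CPM in CTC (−6.20 ± 0.60, adjusted p = 0.000117). LRP1, a receptor that takes up APOE-bearing particles, was at 9.14, 27.7 and 30.1 CPM against 229 and 122 CPM (−2.90 ± 0.38). The mitochondrial carrier gene UCP2 was at 9.80 to 12.1 CPM against 115 and 56.3 CPM (−2.89 ± 0.34). All 4 of these genes were higher in CTC replicate 1 than in replicate 2, as were 61 of the 75 genes called lower.

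The intermediate filament gene VIM (chr10:17228241-17237593), a mesenchymal marker that leukocytes and fibroblasts also express, was at 3.79, 6.28 and 8.86 CPM in TSC. In CTC it was at 221 and 104 CPM, a log2 difference of −4.59 ± 0.40 (adjusted p = 4.78e-05). FN1, the matrix protein fibronectin, was at 6.24, 33.2 and 49.4 CPM in TSC and at 728 and 609 CPM in CTC (−4.45 ± 0.51, adjusted p = 0.00035). ZEB2, a transcription factor of epithelial-mesenchymal transition and of myeloid cells, was at 0, 0.141 and 3.07 CPM against 107 and 55.5 CPM (−6.02 ± 0.83, adjusted p = 0.00202). These 3 were the called members of an 18-gene mesenchymal list, all lower in TSC, while the list's median was 0.04, near the 0.06 of all tested genes. Of the 18 members 9 had positive and 9 negative differences. Unadjusted p was under 0.05 for 11, with 5 higher and 6 lower in TSC, against 16.7% of all tested genes in either direction. Among the uncalled members with positive differences, the adhesion gene L1CAM was at 23.2, 63.4 and 38.8 CPM in TSC and 4.99 and 14.4 CPM in CTC (1.84 ± 0.44, adjusted p = 0.0652). The laminin chain gene LAMB1 was another (1.24 ± 0.29, adjusted p = 0.0652). Summed myeloid markers moved with VIM, FN1 and ZEB2 (30.7 to 60.8 CPM in TSC, 438 and 201 CPM in CTC), and their part in these differences was not tested. In the fibroblast list 0 members were called.

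THBS1, thrombospondin 1, an adhesive glycoprotein, was at 8.24, 16.8 and 14.2 CPM in TSC and at 73.8 and 116 CPM in CTC (−2.85 ± 0.31, adjusted p = 0.000199). TGFB2, a transforming growth factor β ligand, was at 5.79, 4.8 and 3.53 CPM against 28.9 and 15.5 CPM (−2.16 ± 0.38, adjusted p = 0.0141, and 0.0784 without TSC replicate 3). The matrix gene TGFBI was called as well (adjusted p = 0.0293) but rested on unequal CTC values of 42.9 and 4.86 CPM. Its call was lost without CTC replicate 1, TSC replicate 2 or TSC replicate 3 (adjusted p = 0.198, 0.0584 and 0.143). THBS1 and FN1 were the 2 called members of 28 matrix and integrin genes, a list with a median of 0.49.

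Of the 18 genes that were lower in TSC despite a mean of at least 10 CPM there, several differed by a modest and even amount. QKI, an RNA-binding splicing regulator, was at 31.6, 25.1 and 24.1 CPM in TSC and at 92.8 and 72.0 CPM in CTC (−1.60 ± 0.22, adjusted p = 0.00223). DKK1, a secreted Wnt antagonist and the most abundant of those named here, was at 218, 147 and 186 CPM in TSC and at 397 and 462 CPM in CTC (−1.23 ± 0.19, adjusted p = 0.00557). It lost its call without CTC replicate 2 (adjusted p = 0.0762). BTG1, an antiproliferative gene, was at 24.5, 43.5 and 37.0 CPM against 132 and 72.6 CPM (−1.48 ± 0.28, adjusted p = 0.0224), and its call was lost without CTC replicate 1 or TSC replicate 3 (adjusted p = 0.0973 and 0.0899). The adducin gene ADD3, which links actin to spectrin, was lower as well (−1.06 ± 0.23, adjusted p = 0.0437), and passed in 1 of the 8 fits that left out 1 library. ARRDC4, an arrestin-domain gene, CAMK1, a calmodulin-dependent kinase gene, the long noncoding RNA LNCAROD and the zinc finger gene ZNF268 had log2 differences of −1.30, −1.59, −1.56 and −1.24, and passed in 4, 2, 7 and 1 of the 8 fits. PABPC3, at −1.63, is a near-identical copy of another poly(A)-binding protein gene, so its count is uncertain, as are those of the called genes POTEE, POTEI, PDIA3P1 and HSP90B2P.

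Of the interferon-stimulated genes, 2 were called lower in TSC. IFIT1, an antiviral protein that recognises foreign RNA, was at 12.5, 13.6 and 13.7 CPM in TSC and at 76.8 and 43.2 CPM in CTC, so the TSC libraries lay close together and below both CTC libraries. The log2 difference was −2.10 ± 0.29 (adjusted p = 0.00186), and IFIT1 passed in all 8 fits without 1 library. IFI6, the gene of an interferon-induced mitochondrial protein, was at 72.9, 117 and 63.5 CPM against 187 and 222 CPM (−1.28 ± 0.25, adjusted p = 0.0293), and its call was lost without TSC replicate 3 or CTC replicate 2 (adjusted p = 0.148 and 0.176). The transcribed regions of these genes are chr10:89392623-89406487 and chr1:27666064-27672192. Their promoters are shown because both carry the element by which interferon-activated factors bind DNA. They are the 250 bases before the start in RefSeq (GRCh38.p14), chr10:89392373-89392622 on the plus strand and chr1:27672193-27672442 on the minus strand, read 5′ to 3′ in the direction of the gene. Capitals mark matches to GAAANNGAAA on either strand.
IFIT1: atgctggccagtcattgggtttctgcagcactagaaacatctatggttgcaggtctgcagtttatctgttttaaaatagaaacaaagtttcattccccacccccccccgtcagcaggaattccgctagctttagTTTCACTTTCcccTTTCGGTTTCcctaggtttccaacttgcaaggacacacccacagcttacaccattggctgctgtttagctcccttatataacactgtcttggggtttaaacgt
IFI6: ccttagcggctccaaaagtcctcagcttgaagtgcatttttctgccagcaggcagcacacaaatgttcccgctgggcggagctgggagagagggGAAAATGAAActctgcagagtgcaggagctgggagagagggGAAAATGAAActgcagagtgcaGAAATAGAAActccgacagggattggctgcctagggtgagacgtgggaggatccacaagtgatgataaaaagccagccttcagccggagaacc
IFIT1 holds 2 matches, both on the strand opposite to the gene, starting 103 and 116 bases before the start. IFI6 holds 3, at 156, 115 and 93 bases. The motif occurs in 3.07% of 27305 promoters of this length and in 19 of the 32 tested interferon genes with a promoter entry (59.4%). A match is a description and does not show that a factor was bound.

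Of 42 tested interferon genes, 2 were called lower and 0 higher, and 29 had negative differences, with a median of −0.61 against 0.06 for all tested genes. Unadjusted p was under 0.05 for 19, of which 18 were lower, against 16.7% of all tested genes in either direction. IFIT3, a partner of IFIT1, was at 3.12, 6.56 and 4.52 CPM in TSC and at 14 and 18.8 CPM in CTC (−1.79 ± 0.40, adjusted p = 0.0557). BST2, which tethers virions, was at 4.01, 11.2 and 3.8 CPM against 14 and 23.1 CPM (adjusted p = 0.107). In both genes every TSC library lay below both CTC libraries, as in 13% of all tested genes, and the test was missed. ISG15, a ubiquitin-like modifier, overlapped between the groups, at 146 to 171 CPM in TSC and 152 and 222 CPM in CTC. The median of the list lay between −0.73 and −0.47 in the 8 fits without 1 library. Leukocytes express many of these genes, and the summed myeloid markers, given above, moved with them. Their part in the interferon difference was not tested.

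Genes higher in TSC differed by smaller amounts, and each of their calls depended on at least 1 library. None of the 53 passed in all 8 fits that left out 1 library, against 25 of the 75 lower genes. Without CTC replicate 2, 0 of the 53 passed, without TSC replicate 3, 3 passed, and without CTC replicate 1, 24 passed. In CTC replicate 1, 28 of the 53 had under 10 counts. The directions of the called genes did not change in any of the 19 alternative settings that still tested them. The absence of overlap between their TSC and CTC libraries largely fixed that outcome. IGSF9 (chr1:159927041-159945613), an immunoglobulin-family adhesion gene, had a call in 7 of the 8 fits. It was at 18.7, 27.2 and 27.3 CPM in TSC and at 7.98 and 1.91 CPM in CTC (3.06 ± 0.46, adjusted p = 0.00441). The log2 difference was 1.63 without CTC replicate 2 (adjusted p = 0.176) and 3.68 without CTC replicate 1. FOSB, H4C3, SEPTIN3, SCNN1A, SCARNA2, BMP8A, LRRC45 and SLC25A10 passed in 6 of the 8.

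The largest rises under the naming rule were in genes of varied roles. RUNX2, a transcription factor of bone formation, was at 4.68, 11.9 and 11.3 CPM in TSC and at 1.99 and 1.14 CPM in CTC (2.88 ± 0.60, adjusted p = 0.0382), which is 2 counts in CTC replicate 1. PROM2, a prominin of membrane protrusions, was at 15.2, 18.1 and 10.6 CPM against 1.99 and 3.62 CPM (2.15 ± 0.41, adjusted p = 0.0267). SEPTIN3, a GTP-binding cytoskeletal protein gene, was at 13.8, 15.7 and 25 CPM against 4.99 and 4.20 CPM (2.06 ± 0.38, adjusted p = 0.0207). In all 3 genes each TSC library lay above both CTC libraries, as the naming rule required. ORAI2, a subunit of store-operated calcium channels, rose by 2.00 and the calcium channel subunit gene CACNA2D2 by 1.97 on the log2 scale. Of adhesion genes, KIRREL1 rose by 1.87, the cadherin gene CELSR2 by 1.52 and CADM4 by 1.52, and the transcription factor gene NFIB rose by 1.73. CELSR2 was at 37.4, 77.8 and 62.4 CPM in TSC and at 17 and 22.7 CPM in CTC. The membrane protein genes TMEM98 (1.58) and PHETA1, of endosomal transport, (1.76) and the zinc finger gene ZNF628 (1.86) complete the largest rises beside the histones.

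**Figure D3:**
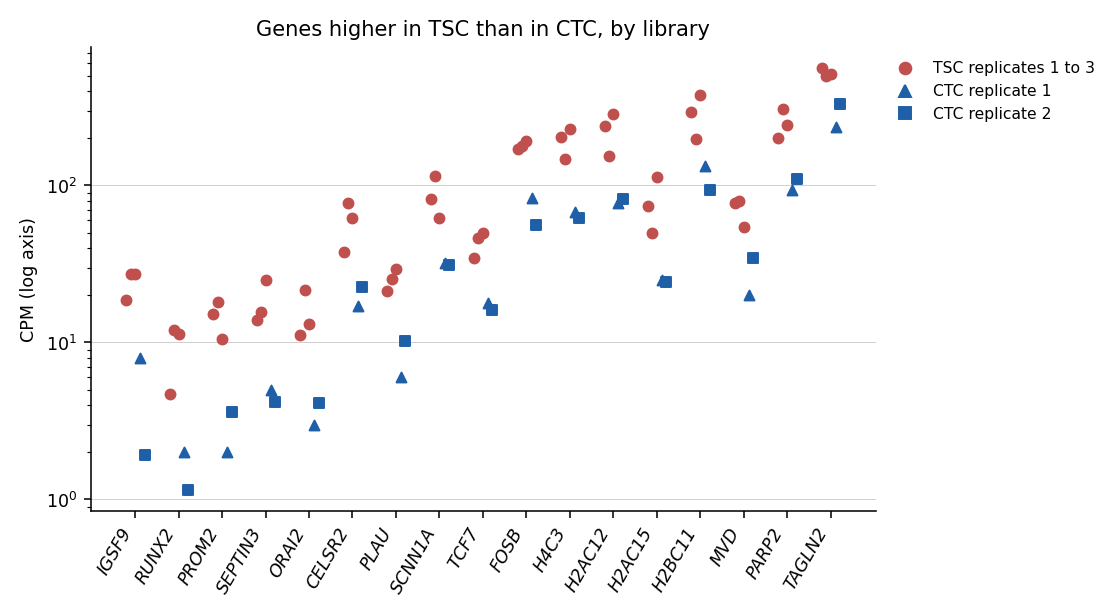
CPM on a log axis for 17 genes called higher in TSC, with 3 TSC libraries (red circles), CTC replicate 1 (blue triangles) and CTC replicate 2 (blue squares). Each red point lies above both blue points of its gene, as for every gene called higher. The fitted folds run from 1.82 for TAGLN2 to 8.36 for IGSF9.

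Further called genes were picked after their values were seen. SCNN1A, a subunit of the epithelial sodium channel, was at 81.6, 114 and 61.7 CPM in TSC and at 31.9 and 31.1 CPM in CTC (1.45 ± 0.27, adjusted p = 0.0207). The Wnt-pathway transcription factor gene TCF7 was at 34.8, 46.2 and 49.7 CPM against 18 and 16 CPM (1.40 ± 0.26, adjusted p = 0.0243). PARP2, a DNA repair enzyme gene, was at 201, 309 and 243 CPM against 93.8 and 111 CPM (1.28 ± 0.23, adjusted p = 0.0172). The smallest called rise was that of TAGLN2, an actin-binding protein gene, at 557, 498 and 510 CPM against 236 and 331 CPM (0.87 ± 0.18, adjusted p = 0.043). PTGS2, the inducible prostaglandin synthase COX-2, had 106 counts over the TSC libraries and 0 in both CTC libraries, at least 13.7-fold higher in TSC. That bound pools the CTC libraries and rests mainly on CTC replicate 2. In CTC replicate 1 a count of 0 allows up to 2.99 CPM, against a pooled 3.57 CPM in TSC. PTGS2 passed in 2 of the 8 fits that left out 1 library. PLAU, the urokinase protease gene, was at 21.4, 25.4 and 29.5 CPM in TSC and at 5.98 and 10.2 CPM in CTC (1.49 ± 0.30, adjusted p = 0.0322) and was the called member among 24 proteases and inhibitors.

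Replication-dependent histone genes, whose mRNAs lack a poly(A) tail and are made in S phase, had mostly positive differences. Of 38 tested members 4 were called higher and 0 lower, 34 were positive, and the median was 1.01. H4C3 (chr6:26103933-26104337) was at 203, 147 and 228 CPM in TSC and at 67.8 and 62.2 CPM in CTC (1.58 ± 0.25, adjusted p = 0.0075). H2AC15 was at 74.0, 50.0 and 113 CPM against 24.9 and 24.4 CPM (1.68 ± 0.34, adjusted p = 0.0335). H2AC12 was at 240, 153 and 284 CPM against 76.8 and 82.4 CPM (1.5 ± 0.30, adjusted p = 0.0343). H2BC11 was at 294, 197 and 376 CPM against 133 and 93.7 CPM (1.38 ± 0.29, adjusted p = 0.0382). In each of the 4 the order of the TSC libraries was the same, with replicate 2 lowest and replicate 3 highest. The summed list showed that order too, at 9808, 6076 and 12494 CPM in TSC against 5932 and 4088 CPM in CTC, so TSC replicate 2 and CTC replicate 1 nearly met. Without TSC replicate 3 or CTC replicate 2, 0 of the 38 were called, and the median over the 8 fits without 1 library ran from 0.76 to 1.28. Histone genes are short and alike in sequence, so counts can be split between copies. In the cell cycle list 0 of 44 members were called, the median was 0.12, and the sums of 6849 to 8869 CPM in TSC and 7418 and 8199 CPM in CTC overlapped. MKI67, a proliferation marker, was at 186, 1129.8 and 488 CPM in TSC and at 338 and 283 CPM in CTC.

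The promoters of the called histone genes with an entry in RefSeq (GRCh38.p14) are shown because they share the CCAAT and TATA boxes of this gene family. H2AC15 is at chr6:27838376-27838625 and H2BC11 at chr6:27132796-27133045, both on the minus strand and read in the direction of the gene. Capitals mark CCAAT and TATAA on either strand, so ATTGG and TTATA are the same motifs read on the other strand.
H2AC15: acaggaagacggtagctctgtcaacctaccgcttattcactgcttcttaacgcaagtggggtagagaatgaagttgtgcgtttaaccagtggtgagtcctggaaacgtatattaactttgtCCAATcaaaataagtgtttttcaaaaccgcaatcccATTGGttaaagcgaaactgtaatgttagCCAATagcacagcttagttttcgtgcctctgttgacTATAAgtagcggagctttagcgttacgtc
H2BC11: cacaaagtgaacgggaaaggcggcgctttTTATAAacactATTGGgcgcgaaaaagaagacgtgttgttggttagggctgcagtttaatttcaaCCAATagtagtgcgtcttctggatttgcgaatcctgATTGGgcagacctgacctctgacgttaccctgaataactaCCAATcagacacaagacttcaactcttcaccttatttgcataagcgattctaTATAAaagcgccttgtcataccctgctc
H2AC15 holds 3 CCAAT matches and 1 TATAA match, the latter 29 bases before the start. H2BC11 holds 4 CCAAT matches and 3 TATAA matches, of which 2 overlap each other and 1 lies 28 bases before the start. Over 34 tested histone genes with an entry, 82.4% held CCAAT and 97.1% TATAA, against 33% and 19.6% of all 27305 promoters of this length.

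Small nuclear RNAs that guide RNA modification, a set picked after values were seen, had mostly positive differences. Of 19 tested SCARNA genes, guides of Cajal bodies, 2 were called (SCARNA2 and SCARNA21), 16 were positive and the median was 1.26. SCARNA2 was at 129, 185 and 179 CPM in TSC and at 65.8 and 64.0 CPM in CTC (1.35 ± 0.22, adjusted p = 0.0098). The nucleolar SNORA and SNORD genes had medians of 0.66 (78 tested) and 0.95 (92 tested) with 0 called. RPPH1, the RNA of ribonuclease P, was called higher (1.11 ± 0.24, adjusted p = 0.043), as was TERC, the telomerase RNA (1.11 ± 0.23, adjusted p = 0.0396). Most of these RNAs are not polyadenylated, as histone mRNAs are not, and they are counted here because libraries were depleted of ribosomal RNA rather than selected for poly(A). RNA quality values per library were not analysed here.

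**Figure D4:**
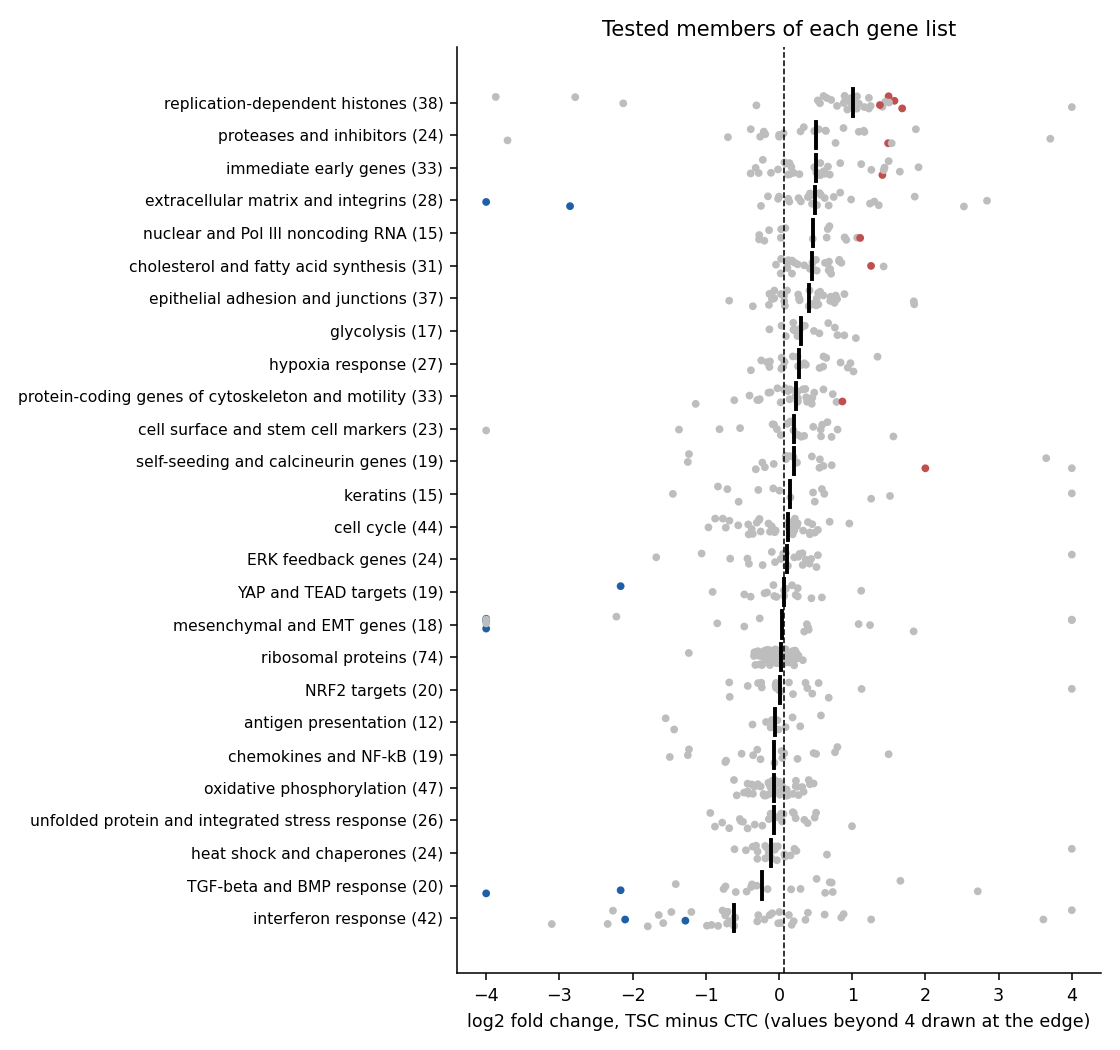
Log2 fold change (TSC minus CTC, x axis) of the tested members of the programme lists drawn, 1 row a list with the number tested in brackets; black bars are medians, red and blue points are members called higher and lower, and the dashed line is the median of all tested genes. Histones lie at the top with a median of 1.01 and interferon genes at the bottom with −0.61, and the other medians run from −0.23 to 0.51.

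Immediate early genes, which cells switch on within minutes of a stimulus, gave 1 call among 33 tested, with 27 positive and a median of 0.51. FOSB (chr19:45467996-45475179), an AP-1 transcription factor, was at 170, 179 and 193 CPM in TSC and at 83.8 and 56.4 CPM in CTC (1.41 ± 0.26, adjusted p = 0.0225). It lost its call without TSC replicate 3 or CTC replicate 2 (adjusted p = 0.119 and 0.194). EGR1 was at 394, 704 and 644 CPM in TSC and at 369 and 61.3 CPM in CTC (1.5 ± 0.51, adjusted p = 0.165). FOS overlapped, at 145 to 315 CPM in TSC and 261 and 44.7 CPM in CTC, and JUN, at −0.01 ± 0.22, was near equal. For EGR1 and FOS it was CTC replicate 2 that was low.

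Lipid and sugar metabolism showed small differences of mostly one sign. Of 31 cholesterol and fatty acid synthesis genes 30 were positive, with a median of 0.45, and 1 was called. That was MVD, an enzyme of the mevalonate pathway, at 77.8, 79.6 and 54.4 CPM in TSC and 19.9 and 34.7 CPM in CTC (1.26 ± 0.26, adjusted p = 0.0406), called in 1 of the 8 fits without 1 library. Fatty acid synthase (FASN) was at 705, 1331 and 1285 CPM against 609 and 643 CPM (0.82 ± 0.24, adjusted p = 0.123). Of 17 glycolysis genes 16 were positive, with a median of 0.30 and 0 called. Unadjusted p was under 0.05 for 8, all higher, against 16.7% of all tested genes in either direction. The aldolase gene ALDOA was at 51.7, 65.3 and 45.2 CPM against 18 and 30.5 CPM (1.05 ± 0.26, adjusted p = 0.0747). Oxidative phosphorylation and ribosomal protein genes had medians of −0.07 and 0.03 with 0 of 47 and 0 of 74 called.

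Genes studied in self-seeding and calcineurin signalling gave 1 call (ORAI2) among 19 tested, against 0.898% of all tested genes, with a median of 0.20. Unadjusted p was under 0.05 for 6, all higher in TSC, against 16.7% of all tested genes in either direction. The ORAI2 call passed in 1 of the 8 fits that left out 1 library. The list summed to 1462, 1519 and 1582 CPM in TSC and to 1214 and 1297 CPM in CTC. RCAN1, a calcineurin regulator, was at 96.7, 134 and 91.8 CPM in TSC, and CTC replicate 2, at 114 CPM, lay within that range whereas CTC replicate 1 was at 32.9 CPM. FGFBP1, a carrier of fibroblast growth factors, showed the same split, at 92.5, 78.8 and 48.4 CPM in TSC and 2.99 and 92.1 CPM in CTC. The tubulin-binding protein gene TPPP3 was at 7.14 to 11.1 CPM in TSC and at 9.97 and 26.1 CPM in CTC (−1.14 ± 0.46, adjusted p = 0.235). CYP24A1, which degrades vitamin D, was at 4.68, 15.5 and 13.3 CPM against 101 and 11.7 CPM, again with CTC replicate 2 inside the range of TSC. The connexin 43 gene GJA1 was at 41.0, 25.8 and 13.3 CPM in TSC, and at 0 and 10.2 CPM in CTC (adjusted p = 0.163). Of 37 epithelial adhesion and junction genes 0 were called, with a median of 0.41. For 10 the unadjusted p was under 0.05, all higher in TSC, against the same 16.7% of all tested genes. The serine protease gene ST14 (0.74 ± 0.22) and its inhibitor gene SPINT1 (0.89 ± 0.26) led these, with adjusted p of 0.121 and 0.118.

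How many genes were called depended strongly on single libraries. Without TSC replicate 1, 497 genes were higher in TSC and 199 lower, and without TSC replicate 3, 3 and 33. Without CTC replicate 1 the counts were 117 and 51, and without CTC replicate 2 they were 7 and 41; each of these leaves 1 CTC library, which is assumed to vary like the other groups. With PC replicates 1, 2 and 3 left out in turn, 16, 12 and 36 genes were higher and 60, 54 and 70 lower, and without TSC replicate 2, 47 and 48. Of the 75 lower genes, 29 passed with either CTC library alone, whereas 0 of the 53 higher genes did. The 25 that passed in all 8 fits include HBB, LYZ, CYBB, ITGAM, CSF1R, SPI1, LCP1, APOE, ABCA1, LRP1, UCP2, VIM, FN1, ZEB2, THBS1, IFIT1 and QKI.

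**Figure D5:**
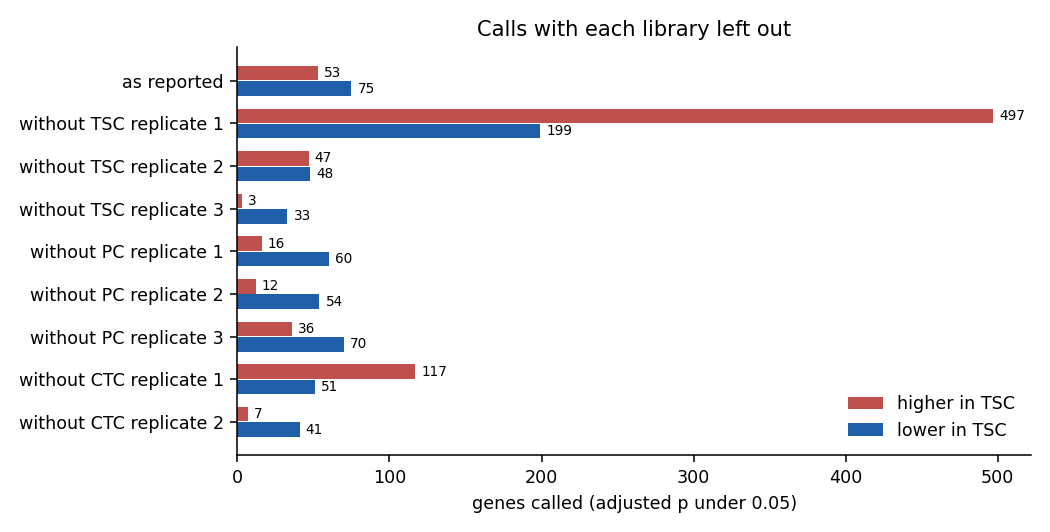
Number of genes called (adjusted p under 0.05, x axis) higher (red) and lower (blue) in TSC, in the fit of all 8 libraries and in fits that leave out 1 library each. Calls rise to 497 and 199 without TSC replicate 1 and fall to 3 and 33 without TSC replicate 3, and the lower genes outnumber the higher ones in each fit other than those without TSC replicate 1 or CTC replicate 1.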

How the data were processed

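RNA of 8 HCT116 libraries (3 TSC, 3 PC, 2 CTC, grouped by title) was extracted, depleted of ribosomal RNA and sequenced, per the labels' protocols. The authors deposited whole-number counts per gene, not normalized; STAR 2.5.3a, featureCounts 1.5.3 and hg38 are named per the submitters' processing notes. Strand, multimapping and removal of host reads are not stated in the labels or file headers used here. Coordinates and promoters are from RefSeq GRCh38.p14, the same build.

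The test was the quasi-likelihood F-test of edgeR 4.0.16 (R 4.3.3), after filterByExpr by group and TMM scaling, with all 8 libraries in 1 fit and the contrast TSC minus CTC. Replicates share only a number and were not paired. CPM were computed from tested-gene totals with TMM factors; the SE is the log2 difference divided by the square root of F. Totals ran from 957607 to 19264595 counts. The scripts were tested on simulated data.

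Genes named are the 15 largest called rises and falls whose average log2 CPM is 3 or more and whose libraries do not overlap (excluding clones, small RNAs, antisense genes and pseudogenes), the 15 largest falls with at least 10 CPM in TSC outside cell type lists, up to 5 members of each described list by adjusted p, and a set of marker genes; some are not printed, and further called genes were picked with their values in view. Members, lists and rules were chosen with earlier results of these data known. Some genes are not reported here. Alternatives were DESeq2 1.42.0 size factors and Wald test, limma-voom (limma 3.58.1), other filters, other sets of libraries or genes, a replicate block, thinning, a fold minimum and leaving out each library.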

Additional observations from a re-analysis of the deposited data

How the results depend on the processing

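Counts of called genes moved with the setting. None of the called genes changed sign in those of the 19 settings that still tested it. The TSC and CTC libraries did not overlap for any called gene, so leaving out 1 library could hardly change a sign. With 53 higher and 75 lower genes (128 in all) as reported, no filter on low counts gave 514, 214 and 728, and a stricter filter (30 counts in 2 libraries) 21, 42 and 63. The Wald test of DESeq2 gave 205, 185 and 390, and limma-voom with quality weights 230, 210 and 440. Thinning all libraries to the shallowest gave 19, 44 and 63, a fold minimum of 1.5 gave 3, 44 and 47, and the 5 TSC and CTC libraries alone gave 10 higher, 72 lower and 82 in all. DESeq2 size factors (50 and 79), removal of blood cell genes (47 and 61) and removal of mitochondrial and small noncoding genes (53 and 74) stayed within 1.5 times. Leaving out 1 library gave 3 to 497 higher, 33 to 199 lower and 36 to 696 in all. The cause of these changes was not tested. The share of higher genes among the calls was 41.4% as reported, 70.6% with no filter, 12.2% with the 5 libraries alone and 6.38% with the fold minimum.

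The replicate number as a block, with the 5 libraries alone, gave 32 higher and 61 lower genes, of which 10 and 53 were among those reported. Replicates 1 and 2 of the groups share only a number: deviations of same-numbered libraries correlated at −0.040 and −0.0057 across genes. For 97 genes named in the text, 1351 of the values under other settings kept their side of the threshold. A further 419 kept their direction and lost the call, and 47 kept their direction and gained one. Of values called in either fit 0 reversed, and direction was not compared where neither fit made a call. Depth limits the comparison most in CTC replicate 1, where 1143 tested genes had 0 counts.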

Other observations

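Further called genes, picked after their values were seen, lay at low levels in TSC and close to 0 in CTC. SEMA6C, a transmembrane semaphorin gene, was at 3.79, 8.33 and 6.51 CPM in TSC and at 0 and 0.477 CPM in CTC (log2 difference 3.88 ± 0.74 SE, adjusted p = 0.0263, n = 3 and 2, from the edgeR test used throughout). BMP8A, a bone morphogenetic protein gene, was at 6.24, 5.01 and 5.25 CPM against 0 and 0.381 CPM (adjusted p = 0.0191). The neuronal calcium channel gene CACNA1B, the guidance molecule gene RGMA, the membrane metalloproteinase gene MMP17 and the collagen crosslinking gene LOXL3 rose by 3.87, 3.52, 3.06 and 2.84 on the log2 scale. Their values in CTC replicate 1, from 0.997 to 1.99 CPM, are 1 or 2 counts. Each of these 6 genes lost its call without CTC replicate 2.

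Among lower genes at higher levels, MBNL1, a splicing regulator, was at 248, 267 and 242 CPM in TSC and at 397 and 460 CPM in CTC (−0.77 ± 0.17, adjusted p = 0.046), and PICALM, a clathrin assembly gene, was at 107, 99.7 and 84.6 CPM against 245 and 165 CPM (−1.06 ± 0.21, adjusted p = 0.0293). MBNL1 passed in 2 and PICALM in 5 of the 8 fits that each left out 1 library.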
